A study of Bos taurus with 72 samples.

Results

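In whole blood of feedlot cattle, 150 genes were chosen by their higher level at entry in 6 animals whose library titles carry a number above 100. They come out of 12627 that passed the filter on low counts and 24616 in the table. For the choice, values were log2 CPM, counts relative to the library total on a log scale, with trimmed mean of M values (TMM) scaling and a prior count of 2. A gene needed a mean log2 CPM no lower than 1, and its mean change over 22 animals from entry to pulled and from entry to close-out had to be below 0.7 in size. These conditions left 9151 genes. The 150 with the largest entry mean of these 6 animals minus that of the other 16 (numbers up to 98) were taken. The entry libraries of both sets of animals and the mean changes from entry therefore chose the genes, and every value that rests on them is given as a description with no test.

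Blood was drawn from the same 24 male beef cattle at 3 stages, which the labels call entry, pulled and close-out, and RNA from PAXgene tubes was made into poly-A selected libraries. All animals carry the same labels for tissue and sex. No treatment, breed, age, diagnosis or sampling date is given in the labels. Animals 9 and 12, with title numbers 26 and 41, were left out by the rule, so each stage has 22 libraries here. The library labelled pulled of animal 9 lay closest to the entry library of animal 11. Their root mean square difference was 0.0922 log2 CPM over 7675 genes, where the next closest pair of all 72 libraries differed by 0.309. The library labelled pulled of animal 12 lay closest to pulled of animal 5 (0.416), a library of another animal. Its second closest library was nearly as near, at 0.426. The title number divides the animals in a way that was noticed in the data, and the labels do not define it as a group. They name no batch for any library, so at entry this division and a batch cannot be told apart. At entry all 6 lay below all 16 in 15.7% of all tested genes and above in 10.1%, while at pulled and at close-out neither share passed 0.0158%.

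Blood RNA comes from several kinds of cell. Neutrophils and monocytes carry transcripts for defence against bacteria, lymphocytes those of antigen receptors and their signalling, platelets those left over from megakaryocytes, and young red cells those of haemoglobin. In cattle arriving at a feedlot, transport, mixing and respiratory infection are known to change both the numbers of these cells and the transcription within them. In bulk blood, fewer cells of a type and less RNA per cell cannot be told apart. Animals are commonly said to be pulled when they are taken from the pen for signs of illness, and close-out is the end of the feeding period. The files do not pair the Ensembl identifiers with names, and 0 of the 24616 matched the gene table at hand. Roles of single genes, membership in pathways, cell type markers and the check of the tissue against its markers are therefore not given, and 4 genes are named by identifier.

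Library totals over the 66 libraries ran from 8.24 M to 29.1 M counts (M, the SI prefix mega). At entry the 6 libraries had TMM factors from 0.691 to 0.943, below the lowest of the 16, which ran from 0.957 to 1.30. A TMM factor corrects for a few abundant genes taking up counts, and a low factor raises every log2 CPM of its library. The 6 also had fewer genes with a count at entry (14913 ± 213, SD, n = 6) than the 16 (15575 ± 342, SD, n = 16). Their totals at entry had a median of 17.1 M (16.4 M to 19.2 M), beside 20.9 M (9.86 M to 24.3 M) in the 16. The part of the totals in these gene numbers was not tested. At pulled and at close-out the factors of both sets overlapped. The part of the factors in the differences between the sets was not tested.

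The 150 genes together took up a larger share of the raw counts at entry in the 6 animals than in any of the 16. This share uses no scaling between libraries. In the 6 it was 3.55% at the lowest, 4.14% at the median and 5.88% at the highest. In the 16 the lowest was 1.72%, the median 2.18% and the highest 3.03%. The ranges did not overlap, which reflects the choice of the genes in these same libraries. At pulled the median share was 2.67% in the 6 (2.12% to 3.48%) and 3.24% in the 16 (2.05% to 5.89%), and at close-out 2.93% (2.45% to 4.90%) and 3.13% (1.79% to 4.09%). At both later stages the ranges of the sets overlapped. The most abundant of the 150 genes held 17.4% of their counts over all libraries and the 10 most abundant held 51.7%, so the share follows a few genes more than the mean log2 CPM does. In the pulled library of animal 22, where the share was highest among pulled libraries (5.89%, 95% Wilson interval 5.88% to 5.91%, counting error only), 43.8% of it was that single gene.

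The mean log2 CPM of the 150 genes weights each gene alike. At entry it was 6.45 ± 0.36 in the 6 animals (SD, n = 6) and 5.00 ± 0.27 in the 16 (SD, n = 16), which reflects the choice. At pulled it was 5.51 ± 0.28 in the 6 and 5.76 ± 0.34 in the 16. At close-out it was 5.60 ± 0.34 and 5.59 ± 0.40. In order of level, entry of the 6 came first and entry of the 16 last. The 4 groups of later libraries lay between them, and among these 4, neighbours in the order differed by less than 1 SD.

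**Figure D1:**
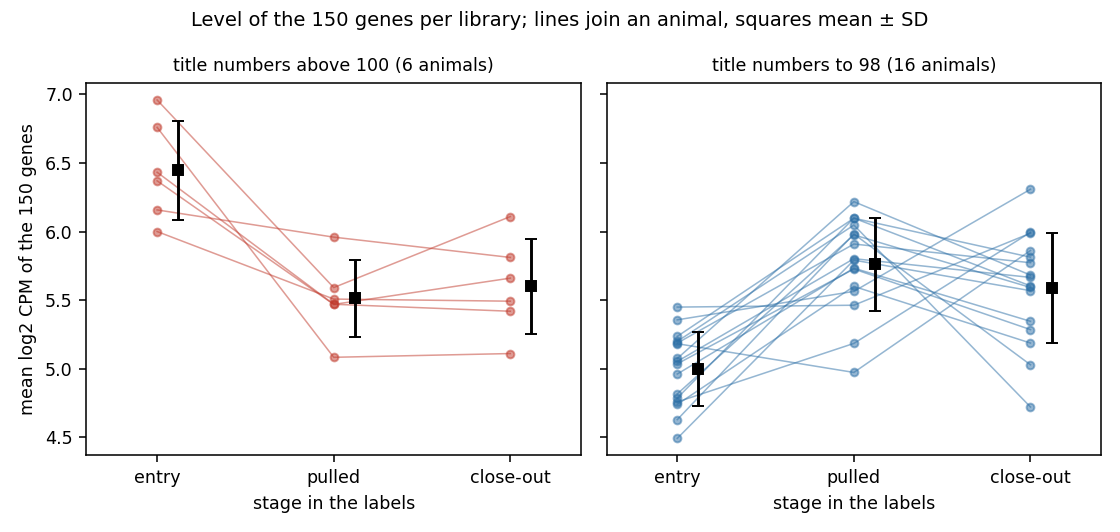
Mean log2 CPM of the 150 genes in every library (vertical axis) by stage, with a line for each animal and squares with bars for the mean ± SD. The 6 animals start at 6.00 to 6.96 and end between 5.11 and 6.11, and the 16 animals start at 4.49 to 5.45 and spread from 4.72 to 6.31 at close-out.

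Both sets moved after entry, in opposite directions. From entry to pulled the mean level went down in 6 of the 6 animals, by 0.20 to 1.68 log2 units, and up in 15 of the 16. The exception, animal 19, went from 5.18 to 4.97. From entry to close-out it again went down in all 6 and up in 15 of the 16, where the exception was animal 1 (5.20 to 4.72). By gene, 148 of the 150 had a lower mean at pulled than at entry within the 6 animals, with a median change of -0.99, and 98% had a higher mean within the 16, with a median change of 0.80. Over all tested genes these medians were 0.06 and -0.06. Entry of the 6 held the highest group mean for all but 3 of the 150 genes, and 137 were at their lowest in entry of the 16. The rule holds the mean change over all 22 animals below 0.7, so opposite movements of the sets are partly built into it, and nothing further is read from these counts.

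The excess at entry ran from 1.30 to 2.50 log2 units (set by the choice), with a median of 1.39 over the 150 genes and -0.08 over all tested genes. With library totals in place of TMM the medians were 0.93 and -0.51, and all 150 genes were still higher in the 6. No step in the values marks the end of the list. The last 3 genes taken had differences of 1.304, 1.304 and 1.303, and the next 3 had 1.303, 1.302 and 1.302. In 74 of the 150 genes all 6 animals lay above all 16 at entry, beside those 10.1% of all tested genes. Since the rule used these libraries, nothing is read from that count. With no bound on the changes from entry, 72% of the 150 genes would still have been taken.

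The entry libraries of animals 9 and 12 were not used in the choice, and both belong to title numbers up to 98. In one scaling of all 72 libraries, the mean log2 CPM of the 150 genes was 5.13 in entry of animal 9 and 4.85 in entry of animal 12. Both lay within the range of the 16 (4.47 to 5.47) and below the lowest of the 6 (6.03). In 127 of the 150 genes both libraries were below all 6 animals, beside 23.2% of all tested genes. The genes were chosen for high values in those 6 libraries, so nothing is read from that count. The share of raw counts was 2.32% (95% Wilson interval 2.31% to 2.32%) and 2.28% (2.28% to 2.29%), also within the range of the 16. With 2 animals against 6 no test was made. The library labelled pulled of animal 9 had a mean of 4.46, beside 4.47 in entry of animal 11, and the library labelled pulled of animal 12 had 5.70.

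The same contrast between the 6 and the 16 animals was tested in the pulled libraries, whose set difference the rule did not use. Of the 150 genes, 125 had a lower mean log2 CPM in the 6 than in the 16 at pulled, with a median difference of -0.31, where entry had the reverse. Over all tested genes the median was 0.03 and 46.4% were lower. The 150 genes varied together across the pulled libraries (median Pearson correlation 0.40), so counts of them are not counts of separate observations. The mean of the 150 genes per animal at pulled overlapped between the sets, from 5.08 to 5.96 in the 6 and from 4.97 to 6.22 in the 16. In edgeR's quasi-likelihood test with Benjamini-Hochberg adjustment over all 12627 genes, 14 of the 150 passed at 0.05 in either direction. This was 9.33%, beside 8.89% of all genes, which is about the background share. All 14 were lower in the 6 (background for lower 2.35%), and 0 were higher (background 6.54%). At an unadjusted p under 0.05 in edgeR, 54 of the 150 were lower, beside 10.5% of all genes, and 4 higher, beside 2414 of the 12627. The log2 fold changes of the 14 genes ran from -0.94 to -0.43, with adjusted p from 0.0312 to 0.0471.

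In 0 of the 150 genes did all 6 animals lie above all 16 at pulled (background 0.00792%) or below them (0.0158%).

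These calls rest on single animals and on the tool. Without animal 3, animal 5 or animal 6 none of the 150 passed in edgeR, and 1 passed without animal 7. There were 3 without animal 1 or 14, 4 without animal 10, 15, 17 or 18, and 7 without animal 22. There were 31 lower genes without animal 20, 41 without animal 19 and 52 (with 1 higher) without animal 4. The lower share of all genes rose as well, from 2.35% to 3.90%, 5.81% and 8.73%. Where fewer of the 150 passed, the lower calls over all genes, 297 at first, fell too. They numbered 0 without animal 3, 5 or 6, and 112 without animal 7. Without animal 1, 10, 14, 15, 17 or 18 they numbered 93 to 105, and without animal 22 they numbered 152. The loss of calls was therefore not confined to the 150. In limma-voom 0 of the 150 genes and 0 of all genes passed, while in DESeq2 32 of the 150 were lower, beside 5.17% of all genes. With library totals in place of TMM, 4 of the 150 passed, all lower, beside 10.6% of all genes in either direction and 0.721% lower. That scaling put 103 of the 150 genes lower and moved the median over all genes from 0.06 to 0.19 (log2 fold change in edgeR), and the lower share of all calls went from 26.4% to 6.77%.

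**Figure D2:**
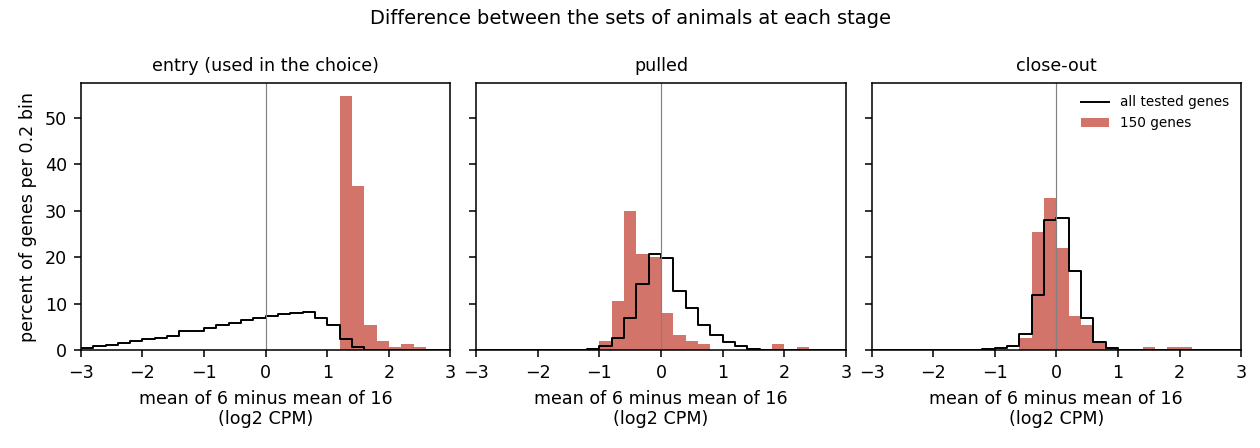
Distribution of the difference between both sets of animals (mean log2 CPM of the 6 minus that of the 16) at each stage, as percent of genes per bin, for the 150 genes (bars) and all 12627 tested genes (line). The 150 genes lie above 1.30 at entry by choice, centre on -0.31 at pulled and on -0.05 at close-out.

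At close-out the sets did not differ past the threshold in any of the 150 genes. The median difference was -0.05 log2 units, with 91 genes lower and 59 higher in the 6 animals, and the median over all tested genes was 0.03. In edgeR 0 of the 150 genes passed, beside 0.0396% of all genes, and 5 of the 150 had an unadjusted p under 0.05, a smaller share than the 9.29% of all genes. In limma-voom and DESeq2 0 of the 150 passed as well. The smallest adjusted p among the 150 genes in edgeR was 0.308. With library totals in place of TMM the number lower went from 92 to 57 of 150 (edgeR log2 fold change), so no direction is given for this stage. All 6 animals lay above all 16 at close-out in 0 of the 150 genes (background 0.00792%) and below them in 0 (background 0%).

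The change from pulled to close-out is the difference of both mean changes that the rule bounds, so it is only described here. Calls at the adjusted threshold are counted, but the bounds keep large changes out of the list, so the counts are no test of it. In the edgeR fit with the animal as a block, 25 of the 150 genes lay past the threshold as lower at close-out and 5 as higher. Beside that, 14.5% of all genes were lower and 16.4% higher. Of the 150 genes 16.7% were called lower and 3.33% higher. The rule holds this change below 1.4 in size, and nothing is read from these shares. The 25 lower genes ran from -0.75 to -0.29 and the 5 higher ones from 0.37 to 0.75 in log2 fold change. Of the 14 genes lower in the 6 animals at pulled, 2 were among the 25. With library totals the counts were 15 lower, beside 7.16% of all genes, and 13 higher, beside 3243 of the 12627, while the median over all genes went from 0.02 to 0.14. The share of lower calls among all genes went from 46.9% to 21.8%.

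The sets were also compared in their change from pulled to close-out. The mean level of the 150 genes went up in 3 and down in 3 of the 6 animals, and up in 4 and down in 12 of the 16. The fitted difference of the change, 6 minus 16, was above 0 in 138 of the 150 genes with a median of 0.26. Over all tested genes 50.2% were below 0, and the median was -0.0014. The test of this difference found 0 of the 150 genes and 0% of all genes in edgeR (1 and 242 at an unadjusted p under 0.05). It also found 0 in limma-voom and in DESeq2. This contrast shares the pulled libraries with the comparison of the sets at pulled. The 150 genes varied together, so the 138 are not separate observations. Within the 6 animals, close-out was above pulled in every animal for 11 of the 150 genes (background 7.64%) and below in every animal for 2 (background 4.48%). Within the 16 there were 0 of each (background 0.784% and 0.752%).

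Across animals within a stage, most of the 150 genes varied together. Over the 22 close-out libraries the median Pearson correlation between 2 of the 150 genes was 0.55 (11175 pairs), beside -0.003 over all pairs of tested genes. In pulled libraries it was 0.40, beside -0.001. Within the 16 animals alone it was 0.58 at close-out, 0.45 at pulled and 0.43 at entry. Genes were compared over the same libraries and so share each library's scaling and composition. All 150 were chosen for a difference in 1 direction at entry, and the rule also bounded their mean changes to the later stages. Pairs of all tested genes mix both directions. The 150 were also more abundant, with a median of mean log2 CPM of 5.66 beside 3.84 over all tested genes. The correlations are therefore a description. Against the mean of the rest of the list, 129 genes had a correlation above 0.5 at close-out and 2 were below 0.

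**Figure D3:**
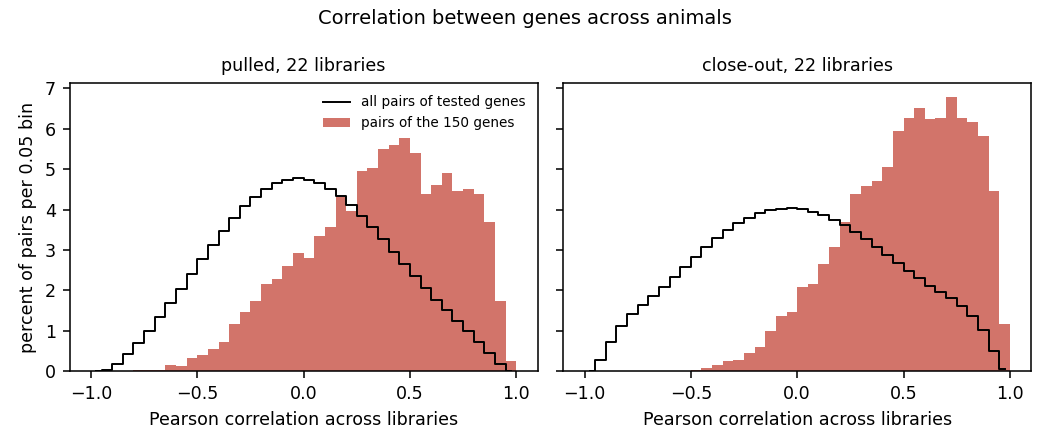
Pearson correlations between pairs of genes across the 22 pulled and the 22 close-out libraries, as percent of pairs per bin, for the 150 genes (bars) and for all tested genes (line). The pairs of the 150 genes centre on 0.40 at pulled and 0.55 at close-out, and all pairs centre near 0.

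At close-out, libraries with a low mean level of the list had the higher scaling factors. A low factor raises every log2 CPM of its library, so the level and the factor are not independent. At entry the low factors and the high levels both belonged to the 6 animals, whose levels the rule used, so nothing is read from entry. Within these 6 at entry, animal 5 had both the lowest mean (6.00) and the lowest factor (0.691). The 5 close-out libraries with the lowest mean (4.72 to 5.28) had TMM factors from 1.13 to 1.26. The 5 with the highest mean (5.86 to 6.31) had factors from 0.796 to 1.03. Of each 5, 1 came from the 6 animals. The totals of both fives overlapped (8.24 M to 18.5 M against 12.9 M to 29.1 M counts). At pulled the 5 lowest had factors from 0.895 to 1.15 and the 5 highest from 0.787 to 0.934. The part of library composition in the shared variation was not tested.

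**Figure D4:**
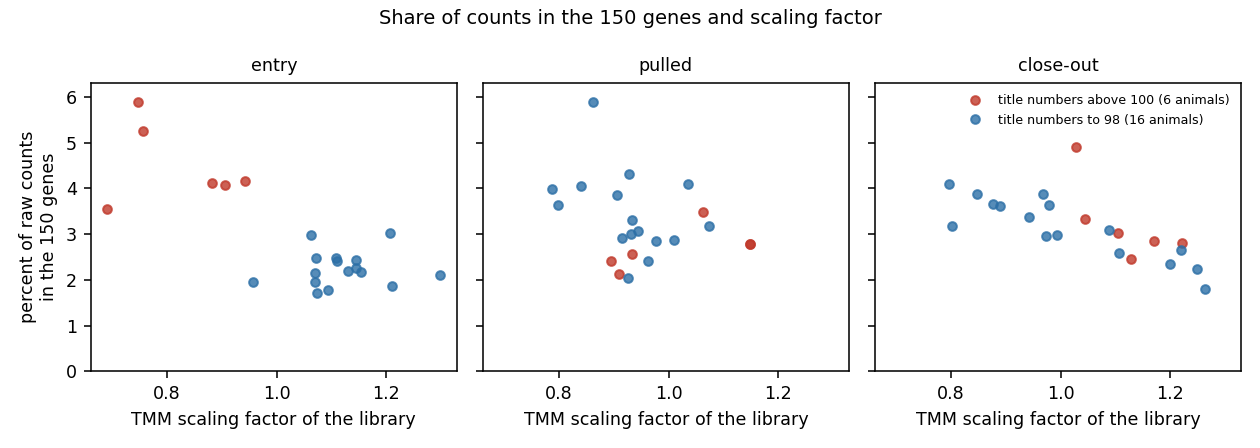
Percent of raw counts in the 150 genes (vertical axis) against the TMM scaling factor of each library (horizontal axis), by stage, for both sets of animals. At entry, where the genes were chosen, the 6 animals lie apart at factors up to 0.943 and shares from 3.55%, and at later stages both sets overlap.

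A few genes of the list followed the animal rather than the stage. The spread between animals over pulled and close-out was more than 2 times the spread within animals in 6 of the 150 genes (4.00%), beside 1.67% of all tested genes. The median ratio of these spreads was 0.79 in the 150 genes and 0.83 in all tested genes. The rule took genes that differ between animals at entry and bounded the mean changes between stages, so nothing is read from these shares. In 3 of the 150 the mean of the 6 animals was more than 1 log2 unit above that of the 16 at each of the 3 stages. The choice put all 150 past 1 at entry. Past 1 were 3 of the 150 at pulled and 3 at close-out, beside 408 and 31 of the 12627 tested genes. These 3 genes had the largest ratios of spread between to spread within animals (4.54 to 6.73). They include the 2 genes with the largest entry difference, which are therefore not typical of the list.

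ENSBTAG00000047029, the first gene by entry difference, was high in some animals of each set and low in others, with 1 animal between. Within the 6 animals its log2 CPM at entry was 1.14 at the lowest, 6.62 at the median and 7.22 at the highest. In the 16 it was 0.52, 1.24 and 7.23. Of the 6 animals 4 were high at all 3 stages (5.07 to 7.40) and 2 were low at all 3 (-0.30 to 1.36). Of the 16, 4 were high (5.09 to 7.23) and 12 were counted as low (-0.26 to 3.31). Among these 12, animal 21 lay between the levels at every stage (3.31 at entry, 2.80 at pulled, 3.11 at close-out), and the other 11 were at 1.42 or below. The groups overlapped, and 0 of the 66 libraries changed side between stages. The set difference was 1.56 (SE 1.02) at pulled in edgeR's test, with an adjusted p of 0.317, and 1.31 (SE 1.01) at close-out, with an adjusted p of 0.689.

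ENSBTAG00000009656, the second, was of the same kind. At entry it was -2.49, 7.43 and 8.13 (lowest, median, highest) in the 6 and -3.12, 0.22 and 7.54 in the 16. The lowest value stands for a count of 0, which was found in 9 of the 66 libraries and allows up to 0.317 CPM in the smallest of them (3 counts, counting error only). Of the 6 animals 4 were high at all stages, and of the 16, 7 were counted as high (3.59 to 8.50). Animal 22, among the 7, lay between the levels at 4.08, 3.59 and 4.51 in the order of the stages, and the other high libraries were at 6.78 or above. The mean difference of log2 CPM at pulled was 2.21, while the count model gave 0.37 (SE 1.47, edgeR adjusted p = 0.897), since the model compares mean counts and the log mean weights the low animals more. Between pulled and close-out its log2 fold change was 0.68 (SE 0.20), given with no test since the rule bounds it. Reads shared with near-identical genes cannot be traced from these counts.

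**Figure D5:**
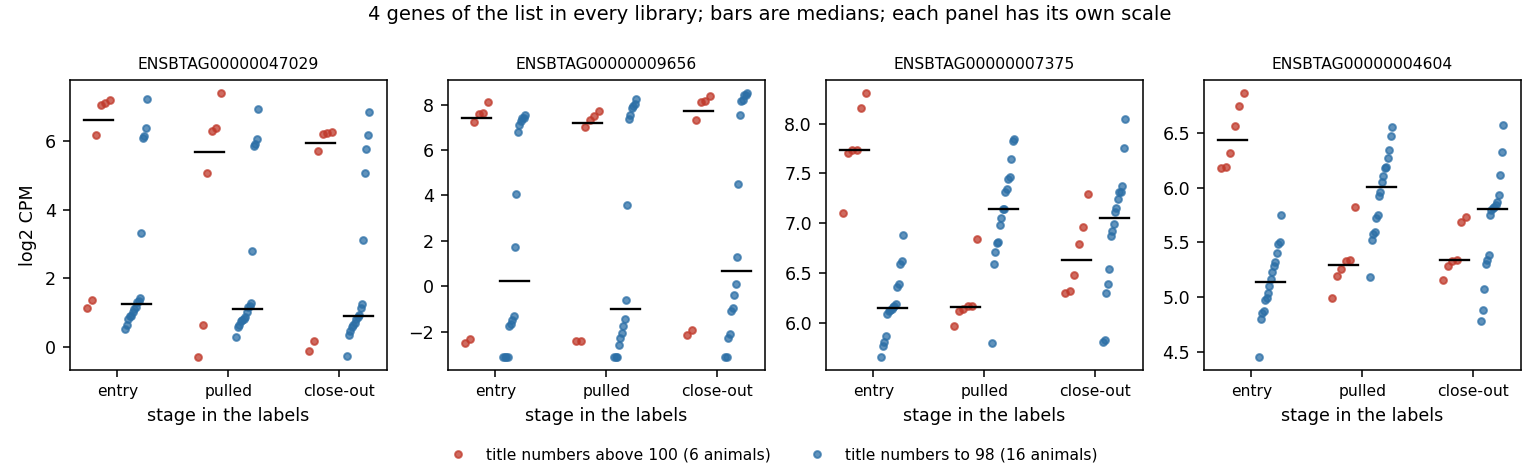
Log2 CPM of 4 of the 150 genes in every library by stage, for the 6 animals and the 16 others, with bars at the medians. The first 2 genes have high and low animals in both sets at every stage and 1 animal of the 16 between them, and in the other 2 the 6 animals lie above the 16 at entry and have the lower median at pulled.

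ENSBTAG00000007375 and ENSBTAG00000004604 had the smallest p among the genes that were lower in the 6 animals at pulled. ENSBTAG00000007375 had a log2 CPM at entry from 7.10 over a median of 7.74 to 8.30 in the 6 and from 5.66 over 6.15 to 6.88 in the 16, with no overlap. At pulled it ran from 5.96 over 6.16 to 6.84 in the 6 and from 5.80 over 7.14 to 7.85 in the 16. Animal 4 was the highest of the 6 and animal 19 the lowest of the 16, and the ranges overlapped. The set difference at pulled was -0.94 (SE 0.22, edgeR adjusted p = 0.0312). The call was lost while the difference stayed between -0.92 and -0.84 in limma-voom (adjusted p = 0.0622), with animals 9 and 12 kept (0.15), and in edgeR without animal 3, 5 or 6 (0.15, 0.0636 and 0.0654). At close-out the difference was -0.32 (SE 0.26, edgeR adjusted p = 0.706).

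ENSBTAG00000004604 ran at entry from 6.18 over a median of 6.44 to 6.86 in the 6 and from 4.45 over 5.14 to 5.75 in the 16. At pulled the 6 were at 4.99, 5.29 and 5.83 (lowest, median, highest) and the 16 at 5.18, 6.00 and 6.55, with overlapping ranges. The set difference at pulled was -0.66 (SE 0.17, edgeR adjusted p = 0.0316). The call was lost while the difference stayed between -0.66 and -0.59 in limma-voom (adjusted p = 0.0622), with animals 9 and 12 kept (0.165), and in edgeR without animal 3, 5, 6 or 7 (0.15, 0.0658, 0.0724 and 0.0506). At close-out the 6 were at 5.16, 5.33 and 5.73 and the 16 at 4.78, 5.80 and 6.57, a difference of -0.30 (SE 0.20, edgeR adjusted p = 0.648). Both genes followed the rest of the list at close-out, with correlations to the mean of the rest of 0.92 for ENSBTAG00000007375 and 0.85 for ENSBTAG00000004604. For ENSBTAG00000047029 and ENSBTAG00000009656 these were 0.10 and 0.09.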

How the data were processed

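The authors deposited read counts per Ensembl gene, 1 column per library, with no normalization. The build UMD3.1 and the tools HTSeq and TopHat2 are named per the submitters' processing notes. No source here gives tool versions, annotation release or strand setting. The number of columns matching no sample was 0.

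Counts were analysed in R 4.3.3 with edgeR 4.0.16. Genes were kept by filterByExpr for the 3 stages in the 66 libraries of 22 animals and scaled by TMM. The set contrasts were fitted on the 22 libraries of 1 stage, and close-out against pulled (a description) on 44 libraries with the animal as a block, which the labels give as the same animal. All p-values were adjusted by Benjamini-Hochberg over all genes, and calls were made at 0.05. Alternatives were RLE scaling, library totals, limma-voom (limma 3.58.1), DESeq2 1.42.0, no low-count filter, an adjusted p of 0.01, other sets of libraries and leaving out animals. Leaving out each of the 16 animals, and the repeat choice of the genes without each of the 6, were added after seeing the data. The edgeR scripts were tested on simulated data. Members and lists were chosen with earlier results of these data known. The 31 gene lists need symbols and were not used. Without symbols, at most 2 higher and 2 lower identifiers were to be named: those with the largest entry difference, and, settled after the values were seen, those with the smallest p among the genes lower at pulled. Standard errors (SE) were derived from each fitted log2 change and its F value, as size over root F.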

Additional observations from a re-analysis of the deposited data

Results flagged for a closer look

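In the close-out libraries of the 6 animals with title numbers above 100, the share of counts in the 150 genes was far from the others in animal 3, at 4.90% (95% Wilson interval 4.89% to 4.91%), with a median of 2.93% in the 6. The most abundant gene held 36.1% of these counts there, beside a median of 15.9% in the 6. At pulled, ENSBTAG00000007375 stood apart in animal 4, at 6.84 log2 CPM beside a median of 6.16 in the 6. In all, 18 groups of 6 values were looked at, and chance marks about 1 in 20 groups.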

How the results depend on the processing

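For the set difference at pulled, the genes lower in the 6 numbered 4 with library totals, 4 with no low-count filter, 0 in limma-voom, 32 in DESeq2, 0 at an adjusted p of 0.01, 0 with animals 9 and 12 kept and 25 with all 66 libraries. Calls over all genes, 1123 at first, were 440 with no filter, 0 in limma-voom, 1808 in DESeq2, 0 at an adjusted p of 0.01, 0 with animals 9 and 12 kept and 2170 with all 66 libraries. Leaving out 1 animal gave 0 to 52 lower and 0 to 1 higher of the 150 genes, and 0 to 3112 of all. At close-out, calls over all genes (5) were 2 with RLE scaling, 0 with library totals, 2 with no filter, 48 in DESeq2, 0 at an adjusted p of 0.01, 8 with all 66 libraries and 0 to 27 without 1 animal. Of the 150 genes 0 passed at close-out under each of these. Close-out against pulled is a description, since the rule bounds that change. For it, library totals gave 13 higher and 15 lower, and an adjusted p of 0.01 gave 1 and 10 (2262 over all genes). With no replicate block 2 were higher and 20 lower, beside 5 and 25 with it. Leaving out each of the 6 gave 4 to 5 higher, 21 to 34 lower and 3504 to 4291 of all genes. The difference between the sets in that change stayed at 0 genes under each alternative run, the fit with no replicate block included. The median entry difference was 0.93 with library totals and 1.31 to 1.49 without each of the 6. The choice repeated under 5 other settings kept 72% to 96.7% of the 150 genes, and 74% to 88% without each of the 6. No direction of the 4 named genes reversed. The cause of these changes between settings was not tested. With 6 animals in 1 set, small differences between the sets may be missed.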
